A study of Homo sapiens and Mus musculus with 21 samples.

Results

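The levels of 41 human genes of DNA replication and mitosis were followed in tumours grown from 2 colon carcinoma cell lines in the caecum of mice. They were chosen by name and found by joining Ensembl identifiers to the symbols of GENCODE release 29. All 41 were among the 58336 human genes of the table, and all 41 were among the 22981 genes that reached at least 1 TPM in at least 3 libraries and were tested. TPM is a transcript abundance per length, scaled so that each library sums to 1000000 human TPM.

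Dividing cells license origins by loading the MCM helicase with CDC6 and CDT1, copy DNA at forks held by the PCNA clamp, and then condense and separate the chromosomes under CDK1, the Aurora kinases and PLK1. E2F factors, held by RB until cyclin-dependent kinases act, switch on replication genes, while MYBL2 and FOXM1 act on mitotic genes through a complex that recognises the cell cycle homology region (CHR). In the gut, Wnt signalling through β-catenin and factors such as LEF1 keeps crypt cells dividing, and it is switched on in most colon carcinomas.

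SW480 and SW620 are colorectal adenocarcinoma lines from a primary tumour and a lymph node metastasis of the same patient. SW480 cells carried dnLEF1, a dominant negative LEF1 brought in by lentivirus, or a mock lentivirus (Mock). SW620 cells carried dnLEF1, the mock lentivirus, an LRP6 knockout made by CRISPR, puromycin selection and sorting for low LRP6, a co-receptor of Wnt (LRP6KO), or a mock CRISPR/Cas9 transfection with sorting (Cas9). Each of these 6 groups had 3 libraries, all from NSG mice, which lack mature lymphocytes, 28 days after injection into the caecum wall. The promoter driving dnLEF1, the age of the mice and whether LRP6KO cells were 1 clone are not given in the sources used here. The labels speak of triplicates without naming animals, so p-values measure the spread between these samples, and in such bulk tissue fewer dividing tumour cells and less RNA per cell cannot be told apart.

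The 18 libraries held 24665 to 34709 human genes above 0, and TPM keeps no depth, so the depth behind each value is unknown. LEF1 was at 14.8, 13.3 and 5.09 TPM in SW480 Mock and at 99.4, 50.0 and 47.2 TPM in SW480 dnLEF1, and it rose from 0.30, 0.80 and 0.59 TPM in SW620 Mock to 18.25, 22.51 and 23.98 TPM in SW620 dnLEF1. LRP6 itself was not lower in LRP6KO (21.1, 18.8 and 17.5 TPM) than in Cas9 (10.9, 17.8 and 17.5 TPM); a gene-level TPM does not read a small edit and so does not check that label. The libraries that stood apart by their number of genes above 0 were SW480 Mock replicate 2 (34709) and SW620 LRP6KO replicate 1 (34114). The epithelial markers EPCAM, KRT8, KRT18, KRT19 and VIL1 were at 62.2 TPM or more in every library, whereas CDX1 was listed at 0 in 11 libraries and CEACAM5 in 2, and CDH17 reached at most 1.17 TPM. CDX2 ranged from 0.17 to 46.2 TPM and CDH1 from 2.79 to 27.4 TPM. The sum of 15 genes of fibroblasts, vessels, leukocytes and muscle was 15.2 to 39.0 TPM, with CD3E listed at 0 in 11 libraries, COL3A1 in 7 and PTPRC in 6. The highest values among them were 12.5 TPM for DES, 10.8 for CD68, 10.4 for LUM and 9.85 for COL1A1. Whether such values are mouse reads placed on human genes or transcripts of the tumour cells was not tested.

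The promoters of the replication genes and of the mitosis genes differed in how often they held the E2F motif and the CHR. Sequences are printed for some members whose levels are described next, among them E2F1 and CDK1, which are in neither of the groups counted. RefSeq promoter windows (GRCh38.p14, 250 bases before to 50 after the start) matched 33 of the 41 genes. The motifs searched, on both strands, were the E2F motif as TTTCCCGC, TTTCGCGC, TTTGCCGC or TTTGGCGC, the CHR as TTTGAA or TTCGAA, and the CCAAT box as CCAAT. The E2F motif was in 11 of 16 windows of licensing, fork and nucleotide genes and in 0 of 10 windows of checkpoint, kinase and spindle genes, against 3.31% of all 35116 windows. The CHR was in 2 of 16 and 9 of 10 of the same windows, against 16.4% of all. A CHR together with a CCAAT box was in 2 of 16 and 8 of 10, against 6.38% of all. A CCAAT box, with or without a CHR, was frequent in both groups, in 10 of 16 and 9 of 10, against 34.6% of all. Capitals below mark motif matches in the bases before the start, 5′ to 3′ on the gene's strand, first for 3 genes with an E2F motif and then for 3 with a CHR.
PCNA, chr20:5126627-5126872 (-): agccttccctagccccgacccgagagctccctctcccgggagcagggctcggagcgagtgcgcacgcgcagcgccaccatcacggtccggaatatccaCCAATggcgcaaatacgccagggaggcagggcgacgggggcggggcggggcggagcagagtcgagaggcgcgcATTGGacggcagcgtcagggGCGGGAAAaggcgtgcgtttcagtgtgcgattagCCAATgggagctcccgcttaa
POLA1, chrX:24693668-24693917 (+): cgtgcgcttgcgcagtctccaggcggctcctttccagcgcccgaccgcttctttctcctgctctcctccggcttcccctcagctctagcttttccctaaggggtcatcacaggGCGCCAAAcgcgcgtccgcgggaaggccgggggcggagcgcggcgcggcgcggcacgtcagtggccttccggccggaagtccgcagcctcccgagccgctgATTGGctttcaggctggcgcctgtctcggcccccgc
E2F1, chr20:33686405-33686635 (-): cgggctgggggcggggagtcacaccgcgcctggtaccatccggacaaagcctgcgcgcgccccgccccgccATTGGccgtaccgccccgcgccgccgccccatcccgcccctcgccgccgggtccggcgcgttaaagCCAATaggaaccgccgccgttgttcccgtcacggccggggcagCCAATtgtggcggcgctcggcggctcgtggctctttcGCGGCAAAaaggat
CDK1, chr10:60778081-60778330 (+): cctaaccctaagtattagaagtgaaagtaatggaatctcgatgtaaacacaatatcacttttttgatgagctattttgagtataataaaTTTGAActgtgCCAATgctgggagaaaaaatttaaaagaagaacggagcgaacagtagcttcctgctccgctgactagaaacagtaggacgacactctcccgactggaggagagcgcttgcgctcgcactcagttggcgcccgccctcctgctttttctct
CDC20, chr1:43358731-43358954 (+): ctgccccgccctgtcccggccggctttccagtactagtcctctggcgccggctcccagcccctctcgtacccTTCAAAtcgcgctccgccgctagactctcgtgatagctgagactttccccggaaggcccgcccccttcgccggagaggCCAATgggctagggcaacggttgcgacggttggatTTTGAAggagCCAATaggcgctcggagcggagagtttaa
MKI67, chr10:128126424-128126673 (-): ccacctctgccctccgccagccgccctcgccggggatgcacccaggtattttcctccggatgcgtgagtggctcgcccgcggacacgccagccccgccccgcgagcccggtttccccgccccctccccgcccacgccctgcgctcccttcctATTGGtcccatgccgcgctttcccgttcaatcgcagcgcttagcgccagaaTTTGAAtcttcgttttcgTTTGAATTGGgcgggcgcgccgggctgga
PCNA, the sliding clamp, and POLA1, the catalytic subunit of the priming polymerase, each hold 1 E2F match, and E2F1 holds an E2F match near its start beside CCAAT boxes. A second E2F match of E2F1, closer to its start, runs past the end of the bases printed and is not marked. CDK1, CDC20 and MKI67 hold CHR matches next to CCAAT boxes, CDK1 also has an E2F match after its start, outside the bases printed, and the CHR nearest the MKI67 start overlaps its CCAAT box. A match is a description of letters and not a measured binding site.

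How abundant was each gene? Over the 18 libraries UBE2C, the ubiquitin-conjugating enzyme of the anaphase-promoting complex, had the highest median level, 403 TPM (329 to 582). It was followed by the helicase subunit MCM7 (326 TPM), the thymidine kinase TK1 (248 TPM) and cyclin B1, CCNB1 (241 TPM). The lowest were the G1 cyclin CCNE1 (2.35 TPM), the licensing factor CDT1 (5.40 TPM) and CCNE2 (7.21 TPM). Within the MCM ring, which holds 1 copy of each subunit, median levels ran from 326 TPM for MCM7 through 161 for MCM3, 148 for MCM5, 122 for MCM4 and 99.9 for MCM2 down to 50.6 TPM for MCM6. MKI67, which encodes the widely used proliferation marker Ki-67, had a median of 19.7 TPM. The genes that varied most between libraries, as the highest over the lowest TPM, were CCNE2 (6.49-fold), the ribonucleotide reductase subunit RRM2 (5.89-fold), CCNE1 (5.06-fold) and MYBL2 (4.65-fold), whereas MCM7 and the spindle factor TPX2 varied 1.75-fold.

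**Figure D1:**
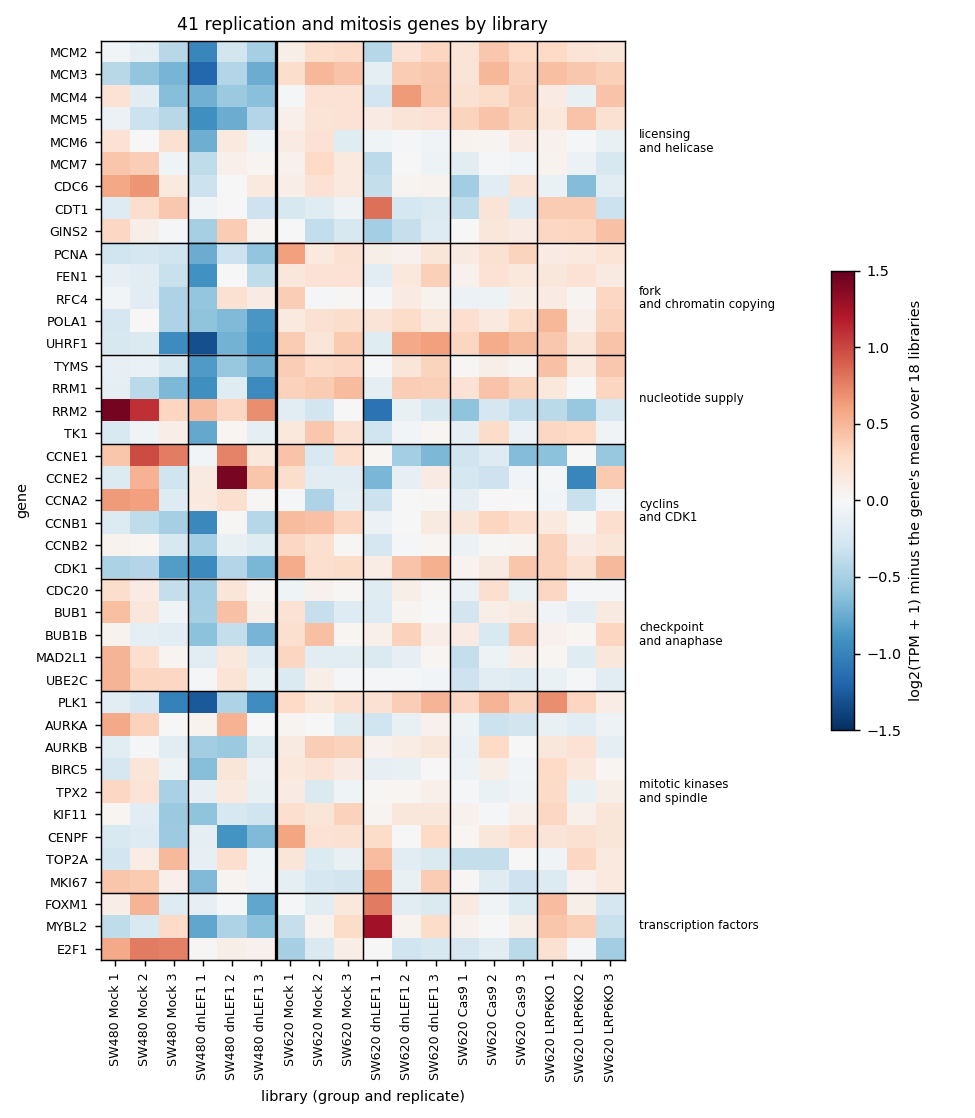
Each row is 1 of the 41 genes, ordered by role, and each column 1 of the 18 libraries; colour is log2(TPM + 1) minus that gene's mean over the libraries. MCM3, TYMS and CDK1 are bluer in the 6 SW480 libraries than in the 12 SW620 libraries, RRM2 is redder there, and SW480 dnLEF1 replicate 1 holds the lowest value of 21 genes.

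The summed level of the 41 genes was 3757 ± 418 TPM in SW480 Mock (4106, 3871 and 3294) and 3082 ± 473 TPM in SW480 dnLEF1 (2579, 3518 and 3148; SD, n = 3). These sums overlapped, and SW480 dnLEF1 replicate 1 was the lowest of all. In SW620 the sums were 4161 ± 59.3 TPM in Mock, 3784 ± 336 in dnLEF1, 3844 ± 240.1 in Cas9 and 3966 ± 137 in LRP6KO. The 4 SW620 groups overlapped except that every Mock library exceeded every Cas9 and dnLEF1 library.

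**Figure D2:**
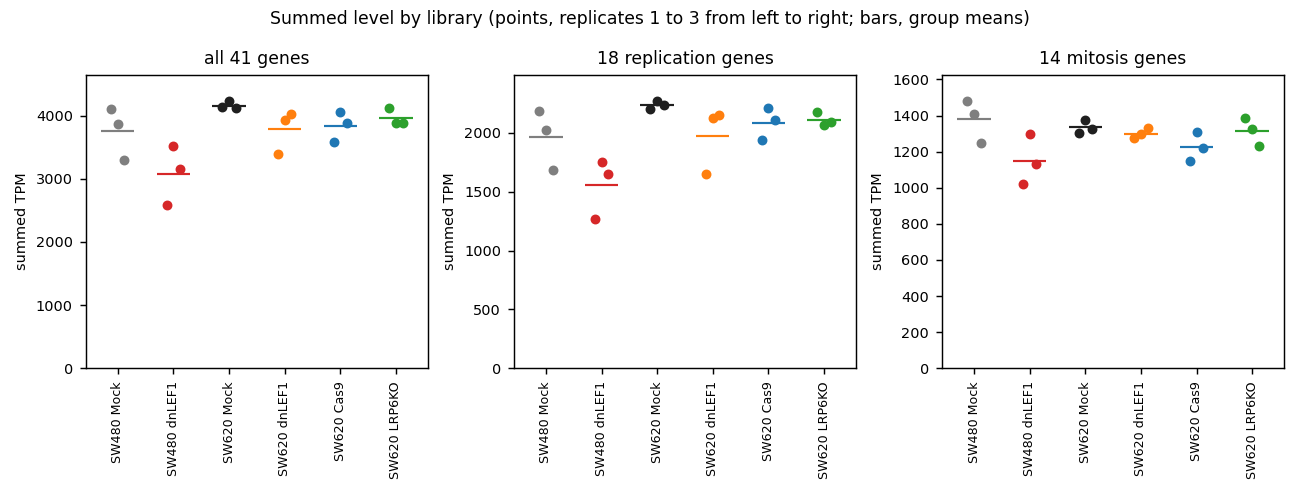
Summed TPM of all 41 genes, of the 18 licensing, fork and nucleotide genes and of the 14 checkpoint, kinase and spindle genes, by group; points are libraries and bars group means. In SW480 dnLEF1 the 3 sums of all 41 genes are 2579, 3518 and 3148 TPM, and in SW620 Mock they lie between 4120 and 4229 TPM.

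The first comparison asks what blocking LEF1 did in SW480 tumours. TYMS, the thymidylate synthase that makes the thymine nucleotide of DNA, fell, and it was the only one of the 41 genes that passed the test. The remaining genes leaned the same way without passing: 39 of the 41 differences lay below 0, with a median of -0.28 on the log2(TPM + 1) scale, against a median of 0.03 over all genes tested, of which 45.7% lay below 0. The scale adds 1 TPM before the logarithm and so understates changes of low genes. With limma and Benjamini-Hochberg adjustment over all genes, the 1 call among 41 stands beside 2.23% of all genes called and 0.875% called lower.

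TYMS (ENSG00000176890.15, chr18:657604-673578 in GRCh38) was at 126, 128 and 118 TPM in SW480 Mock and at 75.5, 92.3 and 82.6 TPM in dnLEF1. The groups did not overlap, and the TYMS difference in log2(TPM + 1) was -0.57 (adjusted p 0.0180, SE 0.12, 95% interval -0.82 to -0.32). ENOSF1, a gene on the other strand that overlaps TYMS, was at 20.4 TPM in Mock and 33.9 TPM in dnLEF1 on average, and whether counting used strand is not given in the sources used here. The TYMS difference held its size, -0.64 to -0.50, when each library was left out, but its adjusted p was 0.0592 without dnLEF1 replicate 3, 0.0560 without Mock replicate 1, 0.0529 with array weights, 0.0505 without the libraries of over 30000 genes and 0.438 when only these 2 groups were fitted.

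By role, all 9 licensing and helicase genes lay below 0 (median -0.37), from CDC6 at -0.52 to GINS2 at -0.15, and none passed the test. Of the 5 fork and chromatin genes 4 lay below 0 (median -0.27). RFC4, a clamp-loader subunit, lay above 0 at 0.15 (adjusted p 0.790), with 69.2, 63.3 and 51.7 TPM in Mock and 47.3, 83.7 and 78.0 TPM in dnLEF1. Its values overlapped, and it overlaps EIF4A2, a gene on the other strand that averaged 151 TPM in Mock and 219 TPM in dnLEF1. All 4 nucleotide genes lay below 0 (median -0.37), as did all 5 checkpoint and anaphase genes (median -0.33), from the checkpoint kinase BUB1B at -0.47 to the anaphase activator CDC20 at -0.10, and all 9 mitotic kinase and spindle genes (median -0.15). The 3 transcription factors had a median of -0.52. Of the 6 cyclin and CDK1 genes 5 lay below 0 (median -0.16), with 0 at an unadjusted limma p below 0.05 and 0 without overlap between groups.

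E2F1, the activator of replication genes, showed the largest negative difference. It was at 16.99, 19.98 and 19.51 TPM in SW480 Mock and at 11.35, 11.97 and 11.78 TPM in dnLEF1, a difference of -0.64 (SE 0.20, adjusted p 0.118). The 2 groups did not overlap, and the dnLEF1 libraries differed from each other by less than 1 TPM. CCNE2, a cyclin that drives entry into S phase, stood on the other side at 0.65 (SE 0.37, adjusted p 0.449), with 6.55, 11.5 and 6.04 TPM in Mock and 8.51, 22.3 and 10.6 TPM in dnLEF1. Its groups overlapped, and 1 dnLEF1 library was well above the other two.

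In 11 of the 41 genes (26.8%) the dnLEF1 libraries did not overlap Mock, all lower, against 11.7% of all genes, and 14.2% of those with a mean of at least 5 TPM, in either direction. They were MCM5, CDC6, PCNA, POLA1, TYMS, BUB1B, UBE2C, AURKB, MKI67, MYBL2 and E2F1. An unadjusted p below 0.05 was also reached by 11, all lower, against 15.0% of all genes. After TYMS the smallest p were those of MCM5 at -0.42 (adjusted p 0.113), E2F1 (adjusted p 0.118) and UBE2C at -0.35 (adjusted p 0.120). Members with an E2F motif had a median change of -0.37 (13 genes) and those without one -0.24 (20 genes), while members with a CHR had -0.24 (13 genes) and those without one -0.32 (20 genes).

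Among other genes of the pathway, POLE2, a subunit of the leading-strand polymerase, fell by 0.99 (adjusted p 0.0353). That was the only call among 40 further replication genes (2.5%), whose median was -0.22. Of all genes 2.23% were called, and of those with a mean of at least 5 TPM 3.27%, so such a count lies near these shares. POLE2 was at 16.1, 17.6 and 12.2 TPM in Mock and 10.1, 4.41 and 8.02 TPM in dnLEF1. None of 43 further mitosis genes passed with limma (median -0.19). Of these 4 had an unadjusted p below 0.05, all lower, against 15.0% of all genes. Among 34 cyclin-dependent kinase inhibitors, D cyclins and RB pathway genes, whose median was 0.01, 1 was called (2.94%), again near the shares above. It was CCND2, a D cyclin that opens G1, which fell by 1.54 (adjusted p 0.0483). CCND2 was at 20.9, 10.6 and 15.3 TPM in Mock and at 8.13, 6.29 and 1.5 TPM in dnLEF1. Both calls were lost in 4 of the 6 fits that left out 1 library (adjusted p up to 0.135 for POLE2 and 0.169 for CCND2), with no filter on low values (0.0582 and 0.0960) and with only these groups fitted (0.438 and 0.403). POLE2 was also lost with array weights (0.0796) and without the libraries of over 30000 genes (0.0977), and CCND2 with a pseudocount of 0.1 (0.264), with the replicate block (0.0727) and without mitochondrial transcripts (0.0510).

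Values of 1 library and of other markers moved with this comparison, and their part in it was not tested. Without SW480 dnLEF1 replicate 1, the library with the lowest value for 21 of the 41 genes, 30 of 41 differences lay below 0 (median -0.19). Epithelial markers summed to 17338 to 21250.15 TPM in Mock and 13322 to 18123 TPM in dnLEF1, a sum made up mostly of KRT8 and KRT18. Of 7 tested 4 lay below 0, 2 of them called (CDX2 -1.62 and KRT19 -0.66), and 3 lay above 0 without passing (EPCAM 0.23, VIL1 0.17 and CDH1 0.68). The 15 genes of other caecum cells summed to 21.3 to 36.7 and 28.8 to 39.0 TPM, with 0 of 11 tested called.

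In SW620 tumours with dnLEF1 no gene of the 41 was called higher or lower. None passed the limma test, against 0.165% of all genes, and 2 had an unadjusted p below 0.05, against 8.10% of all genes. Their median difference was -0.08, against -0.12 over all genes tested, and with median-ratio scaling, which shifts all genes of a library alike, the sign flipped to 0.09, against -0.00 over all genes. The 41 thus lay slightly above the median of all genes under both scalings. They lay below it without dnLEF1 replicate 3 (-0.15 against -0.14), without Mock replicate 3 (-0.14 against -0.10) and with no filter on low values (-0.08 against -0.04). In 7 of the 41 the libraries did not overlap between groups, 1 higher and 6 lower, against 20.9% of all genes. The 95% intervals of the 41 differences ran from -1.15 to 1.15, so for some genes they include changes of 2-fold.

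The 2 genes with an unadjusted p below 0.05 lay on opposite sides. MKI67 was at 18.1, 16.5 and 16.3 TPM in SW620 Mock and at 32.0, 18.4 and 26.3 TPM in dnLEF1, a difference of 0.53 (SE 0.21, adjusted p 0.505). Every dnLEF1 library was above every Mock library, and the MKI67 difference ran from 0.36 to 0.74 when each library was left out. CCNB1, the cyclin that activates CDK1 for mitosis, was at 317, 310.4 and 285 TPM in Mock and at 215, 229.8 and 251 TPM in dnLEF1, a difference of -0.39 (SE 0.18, adjusted p 0.591). Every dnLEF1 library was below every Mock library.

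MYBL2 and CCNE1 showed the other large differences. MYBL2 was at 8.38, 11.3 and 13.5 TPM in Mock and at 27.5, 11.3 and 13.4 TPM in dnLEF1 (0.53, SE 0.29, adjusted p 0.676), and without dnLEF1 replicate 1 the difference was smaller, the lowest of the fits that left out 1 library at 0.17. CCNE1 was at 3.58, 1.89 and 3.03 TPM in Mock and at 2.48, 1.38 and 1.13 TPM in dnLEF1 (-0.53, SE 0.29, adjusted p 0.676). Both genes overlapped between groups. The same replicate 1 also held the highest FOXM1 of its group (25.0 TPM, against 12.5 and 12.1) and the highest CDT1 (11.4 TPM, against 4.85 and 5.01). It held the highest MKI67 (32.0 TPM, against 18.4 and 26.3) and TOP2A (58.0 TPM, against 37.2 and 35.8) too, but the lowest RRM2 (69.4 TPM, against 140 and 127).

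None of the 40 further replication genes, 43 mitosis genes or 34 inhibitor and RB pathway genes passed the limma test in SW620 dnLEF1. An unadjusted p below 0.05 was found for 5, 1 and 4 of them, against 8.10% of all genes. Epithelial markers moved with this comparison: all 7 tested lay below 0 and 1 was called, and the list summed to 15152 to 17071 TPM in Mock and 8740 to 10785 TPM in dnLEF1. Mitochondrial coding transcripts took 3.75% to 4.03% of human TPM in Mock and 4.87% to 6.06% in dnLEF1. Their part in the values of the 41 genes was not tested, although without mitochondrial transcripts the median of the 41 genes was -0.01.

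**Figure D3:**
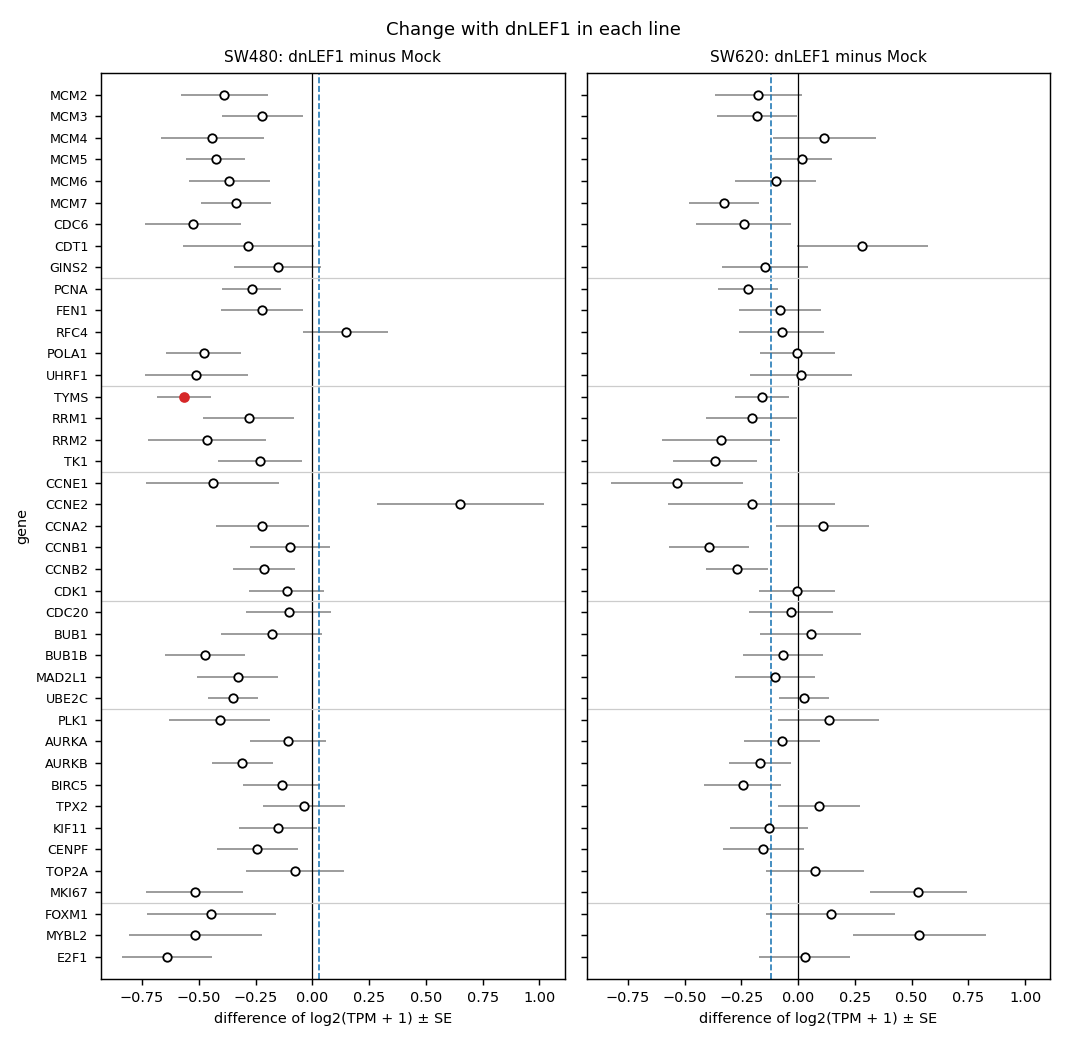
Difference in log2(TPM + 1) between dnLEF1 and Mock for each of the 41 genes in SW480 (left) and SW620 (right); points are estimates, bars 1 SE, the dashed line is the median of all genes tested, and filled red points passed an adjusted p of 0.05. In SW480 39 of 41 points lie below 0 and TYMS alone is filled; in SW620 27 lie below 0 and none is filled.

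Did dnLEF1 act on these genes differently in the 2 lines? No single gene passed the limma test of the difference between the lines, which 0.718% of all genes passed. As the SW620 change minus the SW480 change, 34 of 41 differences lay above 0, with a median of 0.14 against -0.17 over all genes tested, and with median-ratio scaling 39 lay above 0, with a median of 0.42 against 0.02. Without SW480 dnLEF1 replicate 1, however, 23 lay above 0 and 18 below, with a median of 0.0772. An unadjusted p below 0.05 was reached by 6 genes, all above 0, against 12.7% of all genes.

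The 2 largest differences between the lines were at MKI67 (1.05, SE 0.30, adjusted p 0.122, 95% interval 0.41 to 1.69) and MYBL2 (1.05, SE 0.41, adjusted p 0.285). MKI67 was lower with dnLEF1 in SW480, at 27.1, 26.6 and 21.1 TPM in Mock and 12.3, 20.6 and 19.2 TPM in dnLEF1, and higher in SW620. MYBL2 was at 8.15, 9.19 and 13.5 TPM in SW480 Mock and 5.92, 7.60 and 6.78 TPM in SW480 dnLEF1. Both therefore lay on opposite sides of 0 in the 2 lines. When each library was left out, the MKI67 difference between the lines ran from 0.83 to 1.26. The other 4 were E2F1 (0.67, adjusted p 0.323), MCM5 (0.44, adjusted p 0.318), TYMS (0.41, adjusted p 0.309) and UBE2C (0.38, adjusted p 0.309). At the lower end stood CCNE2 (-0.85, adjusted p 0.539) and CCNB1 (-0.29, adjusted p 0.696). Single libraries moved 3 of these values: MYBL2 was at 0.68 without SW620 dnLEF1 replicate 1, CCNE2 at -0.47 without SW480 dnLEF1 replicate 2, and CCNB1 at -0.55 without SW480 dnLEF1 replicate 1 and -0.055 without SW480 dnLEF1 replicate 2. By role, the medians were 0.27 for licensing and helicase genes, 0.14 for fork genes, 0.10 for nucleotide genes, -0.07 for cyclins and CDK1, 0.23 for checkpoint genes, 0.13 for kinase and spindle genes and 0.67 for transcription factors.

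The replicates of the 2 lines were not equally tight. The median SD of the 41 genes between libraries was 0.26 log2 units in SW480 dnLEF1 and 0.24 in SW480 Mock, against 0.11 to 0.18 in the 4 SW620 groups, while 1 spread per gene was fitted to all groups.

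Loss of LRP6 was examined against the Cas9 control. None of the 41 genes passed the limma test, and none of all genes did (0.00%; 10 when only these groups were fitted and 1 with array weights). An unadjusted p below 0.05 was reached by 1 of the 41, against 3.33% of all genes. The median difference was 0.07, the same as over all genes tested. In 4 of the 41 (9.76%) the groups did not overlap, all higher in LRP6KO, against 9.67% of all genes: GINS2, TYMS, CCNB2 and UBE2C. The 95% intervals of the 41 genes ran from -0.77 to 0.88.

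TYMS had the smallest p of the 41, at 139, 146 and 141 TPM in Cas9 and at 186, 153 and 183 TPM in LRP6KO, a difference of 0.28 (SE 0.12, adjusted p 1). All LRP6KO libraries were above all Cas9 libraries. TOP2A, the topoisomerase that untangles sister chromatids, had the largest difference, 0.38 (SE 0.22, adjusted p 1), with 32.5, 32.6 and 41.6 TPM in Cas9 and 40.5, 52.3 and 46.5 TPM in LRP6KO, 1 Cas9 library lying above the lowest LRP6KO library. The 2 lowest were RRM1, the large subunit of ribonucleotide reductase (-0.17, adjusted p 1), at 90.5, 105 and 97.9 TPM in Cas9 and 87.0, 77.7 and 97.7 TPM in LRP6KO, and MCM4 (-0.15, adjusted p 1), at 127, 131 and 139.8 TPM in Cas9 and 118, 99.8 and 145 TPM in LRP6KO. Both overlapped between groups.

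No gene of the further lists of 40 replication, 43 mitosis, and 34 inhibitor and RB pathway genes passed the limma test with LRP6KO. An unadjusted p below 0.05 was found for 1, 3 and 5 of them, against 3.33% of all genes. Mitochondrial coding transcripts took 4.73% to 5.71% of human TPM in Cas9 and 3.93% to 4.20% in LRP6KO, and the 15 genes of other caecum cells summed to 15.2 to 22.2 and 22.8 to 36.0 TPM; their part was not tested. Without LRP6KO replicate 1, the library with 34114 genes above 0, the median difference of the 41 genes was 0.0063.

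The 2 SW620 controls were compared to see how far mock transfection with sorting differs from mock transduction. None of the 41 genes differed by the limma test between Cas9 and Mock, and none of all genes did (0.00%; 1, 8 and 101 with no filter, with only these groups and with array weights). An unadjusted p below 0.05 was reached by 1 gene, against 5.02% of all genes. That gene was TYMS, at 178, 167 and 171 TPM in Mock and 139, 146 and 141 TPM in Cas9 (-0.27, SE 0.12, adjusted p 0.942), with no overlap between the groups.

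Of the 41 genes 7 did not overlap between Cas9 and Mock, 3 higher and 4 lower, against 14.2% of all genes. The highest differences were GINS2, a subunit of the active helicase (0.30, adjusted p 1; 23.5, 18.2 and 19.97 TPM in Mock, 23.5, 26.9 and 25.8 TPM in Cas9), and MCM5 (0.20, adjusted p 1; 138, 151 and 152 TPM in Mock, 166, 177 and 165 TPM in Cas9). The lowest, which were larger in size, were CCNE1 (-0.53, adjusted p 1; 1.77, 1.96 and 1.17 TPM in Cas9) and CDC6, the origin loader (-0.32, adjusted p 1; 29.98, 32.6 and 31.1 TPM in Mock, 19.1, 24.9 and 32.0 TPM in Cas9). Of these 4 only MCM5 had groups that did not overlap. No gene of the 3 further pathway lists passed, with 2, 4 and 2 at an unadjusted p below 0.05, against 5.02% of all genes. Epithelial markers summed to 11033 to 14335 TPM in Cas9 and 15152 to 17071 TPM in Mock, with 0 of 7 tested called and 5 not overlapping, and mitochondrial coding transcripts took 4.73% to 5.71% and 3.75% to 4.03% of human TPM; their part was not tested. These comparisons and the dnLEF1 comparison in SW620 share the Mock libraries or the Cas9 libraries, so their values are not independent of each other. The SW480 dnLEF1 comparison, the difference between the lines in the dnLEF1 change and the comparison of the lines below likewise share the SW480 Mock libraries. In SW480 Mock E2F1 averaged 18.8 TPM, against 9.1 to 11.7 TPM in the other groups, and UBE2C 534 TPM, against 350 to 420 TPM.

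**Figure D4:**
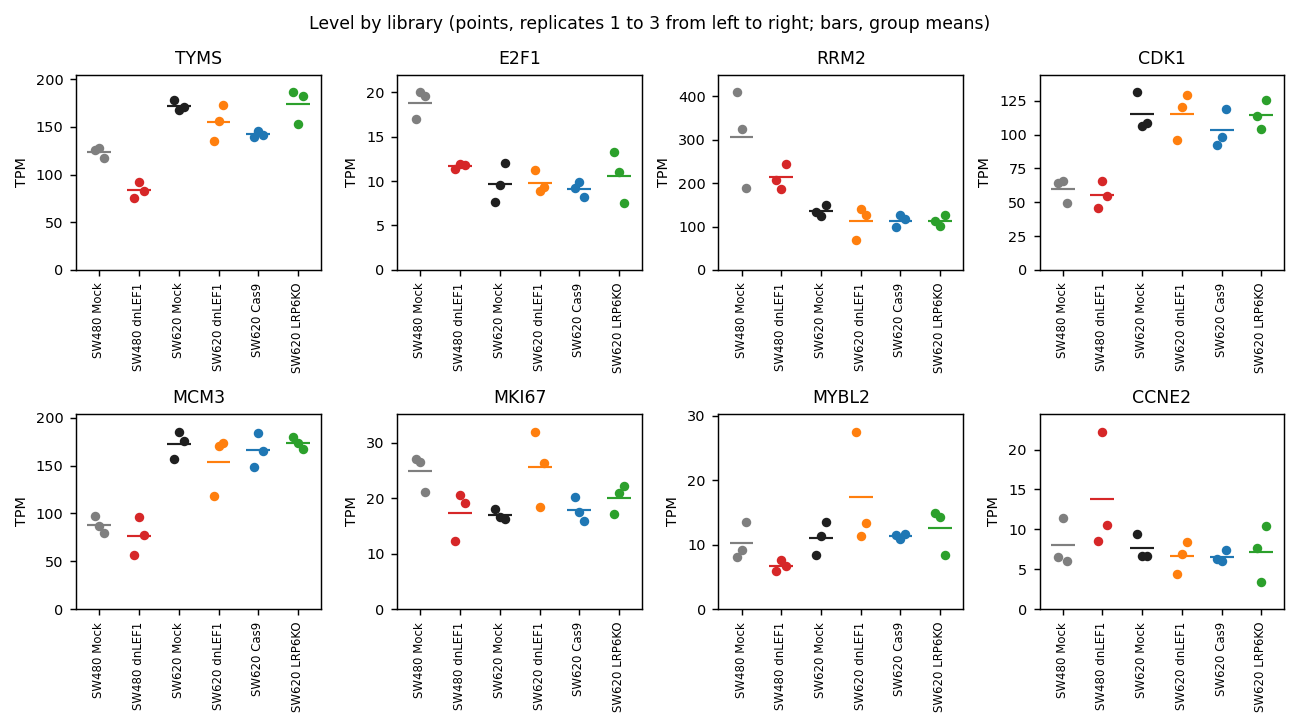
TPM of 8 of the 41 genes in each library; points are replicates 1 to 3 and bars group means. TYMS is lowest in SW480 dnLEF1 (75.5 to 92.3 TPM), E2F1 and RRM2 have their highest means in SW480 Mock, CDK1 and MCM3 are higher in the 12 SW620 libraries than in the 6 SW480 libraries, and MYBL2 has 1 high library in SW620 dnLEF1 (27.5 TPM).

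The widest differences were those between the lines. In SW620 Mock tumours 12 of the 41 genes were higher than in SW480 Mock tumours and 3 were lower, so 15 of 41 (36.6%) passed with limma, against 23.9% of all genes tested (10.9% higher and 12.9% lower) and 34.5% of genes with a mean of at least 5 TPM. The median difference was 0.21, against -0.14 over all genes tested. An unadjusted p below 0.05 was reached by 20, against 34.0% of all genes, and 21 (51.2%) did not overlap between the groups, against 35.4% of all genes. Among the 10780 genes with a mean of at least 5 TPM, 4902 had such a p, 47.5% did not overlap and the median difference was 0.01. Of these 10780 genes 2074 were called higher and 1641 lower. Without regard to direction, the counts of the 41 thus lie near those of genes of comparable level.

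Among licensing genes MCM3 (ENSG00000112118.18, chr6:52264009-52284881) rose most, from 97.6, 86.5 and 79.97 TPM in SW480 Mock to 157, 185 and 176 TPM in SW620 Mock (0.96, SE 0.18, adjusted p 7.16e-04). No SW480 library of either group reached the lowest SW620 library. MCM5 rose from 123, 104 and 98.0 to 138, 151 and 152 TPM (0.44, adjusted p 0.0209). The other ring subunits did not pass: MCM2 at 0.41, MCM4 at 0.34, MCM6 at -0.10 and MCM7 at -0.07, so the values of the 6 subunits ranged from -0.10 to 0.96. CDC6, CDT1 and GINS2 lay at -0.31, -0.32 and -0.33 and did not pass.

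At the fork, PCNA (ENSG00000132646.10, chr20:5114953-5126626) rose from 150.4, 156 and 150.5 to 285, 205 and 218 TPM (0.61, SE 0.13, adjusted p 0.00225). UHRF1, which carries DNA methylation onto the new strand, rose from 41.6, 42.0 and 25.1 to 64.4, 56.1 and 64.8 TPM (0.79, adjusted p 0.0172). Every SW620 Mock library exceeded every SW480 Mock library for all 5 fork and chromatin genes. In either direction, 35.4% of all genes and 47.5% of those with a mean of at least 5 TPM did not overlap. In the other roles the groups did not overlap for 3 of 9 licensing, 4 of 4 nucleotide and 2 of 6 cyclin and CDK1 genes. The same held for 1 of 5 checkpoint genes, 5 of 9 kinase and spindle genes and 1 of 3 transcription factors. FEN1, RFC4 and POLA1 were at 0.41, 0.34 and 0.45 and did not pass, though with median-ratio scaling FEN1 and POLA1 did (adjusted p 0.0433 and 0.0130). FEN1 overlaps TMEM258, a gene on the other strand that averaged 361.5 TPM in SW480 Mock and 471.3 TPM in SW620 Mock. Whether counting used strand is not given, and the part of TMEM258 was not tested.

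The nucleotide genes went in both directions. TYMS rose from 126, 128 and 118 to 178, 167 and 171 TPM (0.47, adjusted p 0.00710). RRM1 rose from 70.9, 58.5 and 48.5 to 98.9, 102 and 109 TPM (0.80, SE 0.20, adjusted p 0.00727). RRM2 (ENSG00000171848.14, chr2:10120698-10131419), which with RRM1 forms ribonucleotide reductase, fell from 409, 324 and 189 to 134, 124 and 150.4 TPM (-1.10, SE 0.26, adjusted p 0.00498). The 2 subunits of 1 enzyme thus differed in opposite directions between the lines, and neither overlapped between the groups. TK1 was at 0.33 and did not pass.

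Of the cyclins and CDK1, both genes of the mitotic kinase rose. CDK1 (ENSG00000170312.15, chr10:60778331-60794852) had the smallest p of the 41 and rose from 64.1, 65.6 and 49.6 to 131, 106 and 109 TPM (0.94, SE 0.17, adjusted p 5.07e-04). Its partner CCNB1 rose from 199, 175 and 162 to 317, 310.4 and 285 TPM (0.77, SE 0.18, adjusted p 0.00399). CCNA2 was at -0.56 (adjusted p 0.0592), CCNE1 at -0.58, CCNB2 at 0.24 and CCNE2 at -0.03, and none of these passed.

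Among checkpoint genes UBE2C fell from 582, 511 and 509 to 351, 435 and 402 TPM (-0.43, SE 0.11, adjusted p 0.00783). CENPF, a kinetochore protein, rose from 37.4, 38.4 and 29.8 to 66.8, 51.5 and 51.8 TPM (0.67, adjusted p 0.0106). PLK1 (0.71), the chromosomal passenger kinase AURKB (0.40) and the spindle motor KIF11 (0.49) also rose, with adjusted p of 0.0271, 0.0389 and 0.0489. MKI67 lay at -0.52 (adjusted p 0.0921), with no overlap between the lines. E2F1 (ENSG00000101412.12, chr20:33675683-33686404) fell from 16.99, 19.98 and 19.51 to 7.62, 9.5 and 12 TPM (-0.91, SE 0.20, adjusted p 0.00289), while FOXM1 (-0.15) and MYBL2 (0.10) did not pass.

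**Figure D5:**
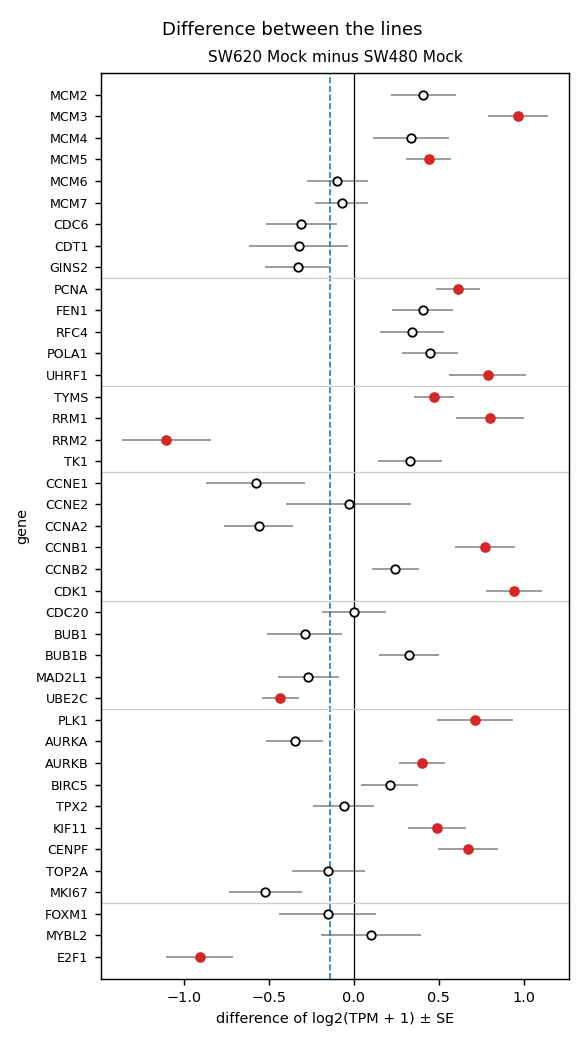
Difference in log2(TPM + 1) between SW620 Mock and SW480 Mock for each of the 41 genes; points are estimates, bars 1 SE, the dashed line is the median of all genes tested, and filled red points passed an adjusted p of 0.05. The 12 genes that rose range up to 0.96 (MCM3), and RRM2, E2F1 and UBE2C are the 3 that fell.

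Among the further lists 12 of 40 replication genes, 4 of 43 mitosis genes and 14 of 34 inhibitor and RB pathway genes passed, beside 23.9% of all genes and 34.5% of genes with a mean of at least 5 TPM. Of 40 further replication genes 10 rose and 2 fell (median 0.20), led by the primase PRIM1 (0.80; 50.6, 57.8 and 55.6 TPM in SW480 Mock, 89.2, 101 and 97.5 TPM in SW620 Mock), the nuclease-helicase DNA2 (1.83; 2.22, 2.20 and 2.94 against 11.0, 15.3 and 8.44 TPM), the fork protection factor TIPIN (0.87) and the replication factor MCM10 (1.06). Of 43 further mitosis genes 2 rose, the kinetochore gene CENPW (1.49) and the spindle gene DLGAP5 (0.56), and 2 fell, the condensin subunit SMC4 (-0.76) and the kinetochore gene SPC25 (-0.82). Of 34 inhibitor and RB pathway genes 8 rose and 6 fell. CDKN1A, the p53-induced kinase inhibitor p21, fell from 169, 148 and 108 TPM to 5.63, 4.37 and 7.27 TPM (-4.40), and CCND1, cyclin D1, from 2327, 3068 and 2572 to 640.4, 583 and 509.6 TPM (-2.20). CDKN2A, which encodes the inhibitor p16, rose from 82.1, 69.5 and 72.2 to 428, 406 and 463 TPM (2.52), and E2F4, a repressor of cell cycle genes in resting cells, from 16.4, 16.5 and 15.3 to 58.9, 61.2 and 67.5 TPM (1.90).

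Position on the chromosomes moved with some of these values and not with others, and its part was not tested. Genes of chromosome 10 with a mean of at least 5 TPM had a median difference of 0.42 between the lines (389 genes), where CDK1 (0.94), KIF11 (0.49) and MKI67 (-0.52) lie. The median was 0.25 on chromosome 6 with MCM3, -0.06 on chromosome 20 with PCNA, UBE2C, AURKA, TPX2, MYBL2 and E2F1, and -0.16 on chromosome 2 with RRM2. On chromosome 19 it was -0.19, against 0.11 for the members there, UHRF1 and CCNE1. Likewise it was -0.13 against 0.21 on chromosome 17 and -0.24 against 0.38 on chromosome 3. CCNB1 (0.77) and TYMS (0.47) lie on chromosomes 5 and 18, where the medians were 0.023 and 0.015. Of the epithelial markers 2 of 7 tested were called, CDX2 lower (-3.83) and VIL1 higher (0.67). The sum of the epithelial list was 17338 to 21250.15 TPM in SW480 Mock and 15152 to 17071 TPM in SW620 Mock. Of 11 tested markers of other caecum cells 4 were called, and their part was not tested. The fibroblast gene LUM (listed at 0 in all SW480 Mock libraries, and at 10.4, 7.63 and 7.73 TPM in SW620 Mock), PDGFRB (1.05) and the vessel gene PECAM1 (1.16) were higher, and the muscle gene DES (-1.74) was lower. LUM and DES went with the injected line in every group. LUM was at most 0.34 TPM in every SW480 library and at least 2.21 TPM in every SW620 library. DES was at least 5.04 TPM in every SW480 library and at most 2.85 TPM in every SW620 library.

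Leaving out 1 library left 10 to 14 of the 41 genes called, 10 of them without SW620 Mock replicate 1 or replicate 3, and CDK1, MCM3, PCNA, E2F1, CCNB1, RRM2, TYMS and RRM1 passed in every such fit. AURKB and KIF11 were lost in 5 of the 6, MCM5 and PLK1 in 4, UHRF1 in 3 and UBE2C and CENPF in 1 each, with adjusted p of at most 0.183, and UBE2C was also lost with median-ratio scaling (adjusted p 0.0942). That scaling called 17 of the 41, MCM2 (adjusted p 0.0473), FEN1 and POLA1 among them; with no filter on low values 12 were called, without PLK1, AURKB and KIF11, and with only these groups fitted 11, without MCM5 as well.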

How the data were processed

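RNA of frozen caecum was made into Smart-seq2 libraries, and RNA had an integrity number of at least 9, per the labels. The deposited table holds TPM that the authors made, per the submitters' processing notes, with Trimmomatic 0.35, Bowtie 1.2 and RSEM 1.2.31 against hg38; the annotation release and strand setting are not given in the sources used here. TPM are shares of all human transcripts, so a few abundant genes can shift the rest. Of 58381 identifiers, 45 second copies of pseudoautosomal genes, all 0, were left out. The mouse table and the 3 PBS-injected mouse samples were not used here.

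limma 3.58.1 (R 4.3.3) with a trend was run on log2(TPM + 1) for genes that reached 1 TPM in 3 or more of 18 libraries, all 6 groups entering the fit as means, and Benjamini-Hochberg adjustment within each of 6 comparisons at 0.05. The code was tested on simulated data. Figures used Python 3.11.15 and matplotlib 3.10.9. The rule gave library values for every gene called (if over 12 in a comparison, the 12 with the smallest p) and for the 2 largest changes each way, and up to 4 called genes per further list; other genes were named after their values were seen. The members and lists were chosen with earlier results of these data known. Intervals are 95%.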

Additional observations from a re-analysis of the deposited data

How the results depend on the processing

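The settings changed in turn were the scaling (by median ratio), the pseudocount (0.1), the low-value filter (none), the samples (only the groups compared, or 1 library left out), array weights and a replicate block, and, chosen after seeing the data, a table without mitochondrial transcripts and one without the 2 libraries of over 30000 genes above 0. In the 4 comparisons other than SW480 dnLEF1 and the lines, 0 of the 41 genes were called under every alternative run.

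For SW480 dnLEF1, 0 of the 41 were called with only the groups compared, with array weights and without libraries of over 30000 genes, and 0 to 1 when 1 library was left out (without dnLEF1 replicate 3 the 1 call was MCM5, adjusted p 0.0487, not TYMS). All genes called went from 512 to 333 (pseudocount 0.1), 29 (only the groups compared), 261 (array weights) and 272 to 1223 (leaving out 1 library, the highest without dnLEF1 replicate 1, the lowest without dnLEF1 replicate 2); the split was 190 higher and 225 lower after median-ratio scaling, against 311 and 201. RFC4 ranged from -0.0053 (reversed, without dnLEF1 replicate 2) to 0.3997 (without dnLEF1 replicate 1). The cause was not tested in any of these cases.

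For SW620 dnLEF1 the median of the 41 genes was 0.0896 with median-ratio scaling, -0.0093 without mitochondrial transcripts and -0.15 to -0.0317 leaving out 1 library. All genes called went from 38 to 21 (pseudocount 0.1), 120 (only the groups compared), 394 (array weights) and 17 to 26 (leaving out 1 library, 1 spread being shared by all groups); with scaling 21 were higher and 17 lower, against 13 and 25. For the difference between the lines in the dnLEF1 change the median was 0.42 with scaling and 0.0772 to 0.31 leaving out 1 library, and all genes called went from 165 to 108 (scaling, 54 higher and 54 lower, against 41 and 124), 43 (only the groups compared), 358 (array weights), 312 (without libraries of over 30000 genes) and 66 to 781 (leaving out 1 library).

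For LRP6KO the median was 0.0043 with scaling, 0.0063 without libraries of over 30000 genes and 0.0063 to 0.0907 leaving out 1 library, and all genes called were 10 with only the groups compared and 1 with array weights, against 0. For Cas9 the median was -0.037 without mitochondrial transcripts and -0.15 to -0.0677 leaving out 1 library, and all genes called were 1 with no filter, 8 with only the groups compared, 101 with array weights and 0 to 1 leaving out 1 library, against 0. For the lines the median was 0.31 with scaling and 0.13 to 0.29 leaving out 1 library. Scaling moved the median of all genes by over 0.1 only for the 2 dnLEF1 contrasts that involve SW620.

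Replicate numbers showed no clear pairing of the samples (same-number correlations of -0.13 to 0.12), though 3 libraries a group are too few to exclude one. With the replicate block 1 and 14 of the 41 genes were called for SW480 dnLEF1 and the lines, against 1 and 15, and all genes called were 417, 32, 144, 0, 0 and 5196. Depth is unknown, and 3 libraries a group limit what the tests can detect.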
